A study of Homo sapiens with 3 samples.

Results

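CCN1, CCN2 and 8 other genes of the YAP/TEAD pathway were followed across 3 array libraries of GFP-SAS cells, derived by their name from the established human tongue carcinoma line SAS. The 10 genes were CCN1, CCN2, ANKRD1, AMOTL2, AXL, AJUBA, LATS2, YAP1, WWTR1 and TEAD1, and they were taken as every probe set that the platform annotation assigns to one of them alone. That gave 31 of 49386 probe sets and 10 of 18239 genes. The genes were chosen by their log2 differences from the control in these same libraries, CCN2 being among those furthest below it, so the values below describe the 10 genes and no test was made on them. One library came from cells given siAkt1-22 and one from cells given siAkt1-58, small interfering RNAs (siRNAs) against AKT1, and the control library from cells given the non-targeting siRNA siNT. Each siRNA was used at 10 nM for 24 h, and the labels do not say whether the RNAs came from separate experiments. The comparison asks how gene expression differed when AKT1, a serine/threonine kinase of the PI3K pathway, was knocked down.

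YAP1 and its relative TAZ, encoded by WWTR1, are transcriptional coactivators that enter the nucleus and switch on genes through the DNA-binding TEAD factors. The Hippo kinase cascade, ending in LATS1 and LATS2, phosphorylates them and keeps them in the cytoplasm, and low cell density, spreading on a stiff matrix and actin tension favour their activity. In squamous carcinoma cells the pathway is known for promoting growth and invasion. CCN1, CCN2 and ANKRD1 are its most used reporter genes.

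AKT1 itself read 3.67 with siAkt1-22 and 3.47 with siAkt1-58, against 6.75 with siNT, in its brightest probe set (all expression values are log2). Array medians over all probe sets were 4.59 with siAkt1-22, 4.58 with siAkt1-58 and 4.59 with siNT. The 24 probe sets for poly-A RNA spiked in before labelling stood -0.56 from siNT with siAkt1-22 and -0.01 with siAkt1-58, and their part in the results was not tested. Of the 6 epithelial markers measured, CDH1, EPCAM, KRT5, KRT8 and KRT18 lay at or above the dim-signal filter of 3.93, the 30th percentile of the genes' mean values. KRT14 was under that filter. The fibroblast markers COL1A1, COL1A2, COL3A1, DCN and LUM were all under it in their means, and the linear values of the 7 fibroblast markers summed to 90.8 with siAkt1-22, 89.5 with siAkt1-58 and 90.7 with siNT. The endothelial and immune markers under it were CDH5, KDR, PTPRC, CD3E, CD14 and MS4A1. PDGFRA, PDGFRB, PECAM1 and VWF lay just above it at equal values in all 3 libraries, while CD68, a lysosomal protein also made by epithelial cells, read 6.75 with siAkt1-22, 7.14 with siAkt1-58 and 6.33 with siNT.

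The secreted factors CCN1 and CCN2 were lower than siNT with both siRNAs, as were AXL and ANKRD1. The size of the difference varied widely between the siRNAs. With siAkt1-58, 5 of the 10 genes (CCN1, CCN2, ANKRD1, AMOTL2 and AXL) were at least 2-fold below siNT, where 3.58% of the 12779 genes past the filter were; with the probe sets of each gene averaged, AMOTL2 (-0.48) was not, which left 4. With siAkt1-22 only CCN2 was, where 5.97% of all genes were. CCN2 was therefore the 1 member at least 2-fold lower with both siRNAs, against 1.17% of all genes. Below siNT by any amount with both were 4 of the 10 (CCN1, CCN2, ANKRD1 and AXL), where 21.4% of all genes were. No member was at least 2-fold higher, where 4.40% of all genes were with siAkt1-22, 1.54% with siAkt1-58 and 0.736% with both. When each array was shifted by its poly-A controls, an alternative scaling that moves the median gene by 0.57 with siAkt1-22, only CCN2 was below siNT with both siRNAs, and LATS2 (1.19) and AJUBA (1.05) were at least 2-fold higher with siAkt1-22. The 10 genes had a median difference from siNT of -0.07 with siAkt1-22 and -0.83 with siAkt1-58, and the median over all genes was 0 with either siRNA. Both differences use the same siNT library, and in RNA from whole cultures fewer expressing cells and less RNA per cell cannot be told apart. All 10 genes passed the filter through their brightest probe set. CCN2 did so only through siNT, reading 6.07 there, 4.02 with siAkt1-22 and 2.98 with siAkt1-58. A gene kept in that way lies below siNT on average by the filter alone. Its count beside the share of all genes therefore tests nothing.

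**Figure D1:**
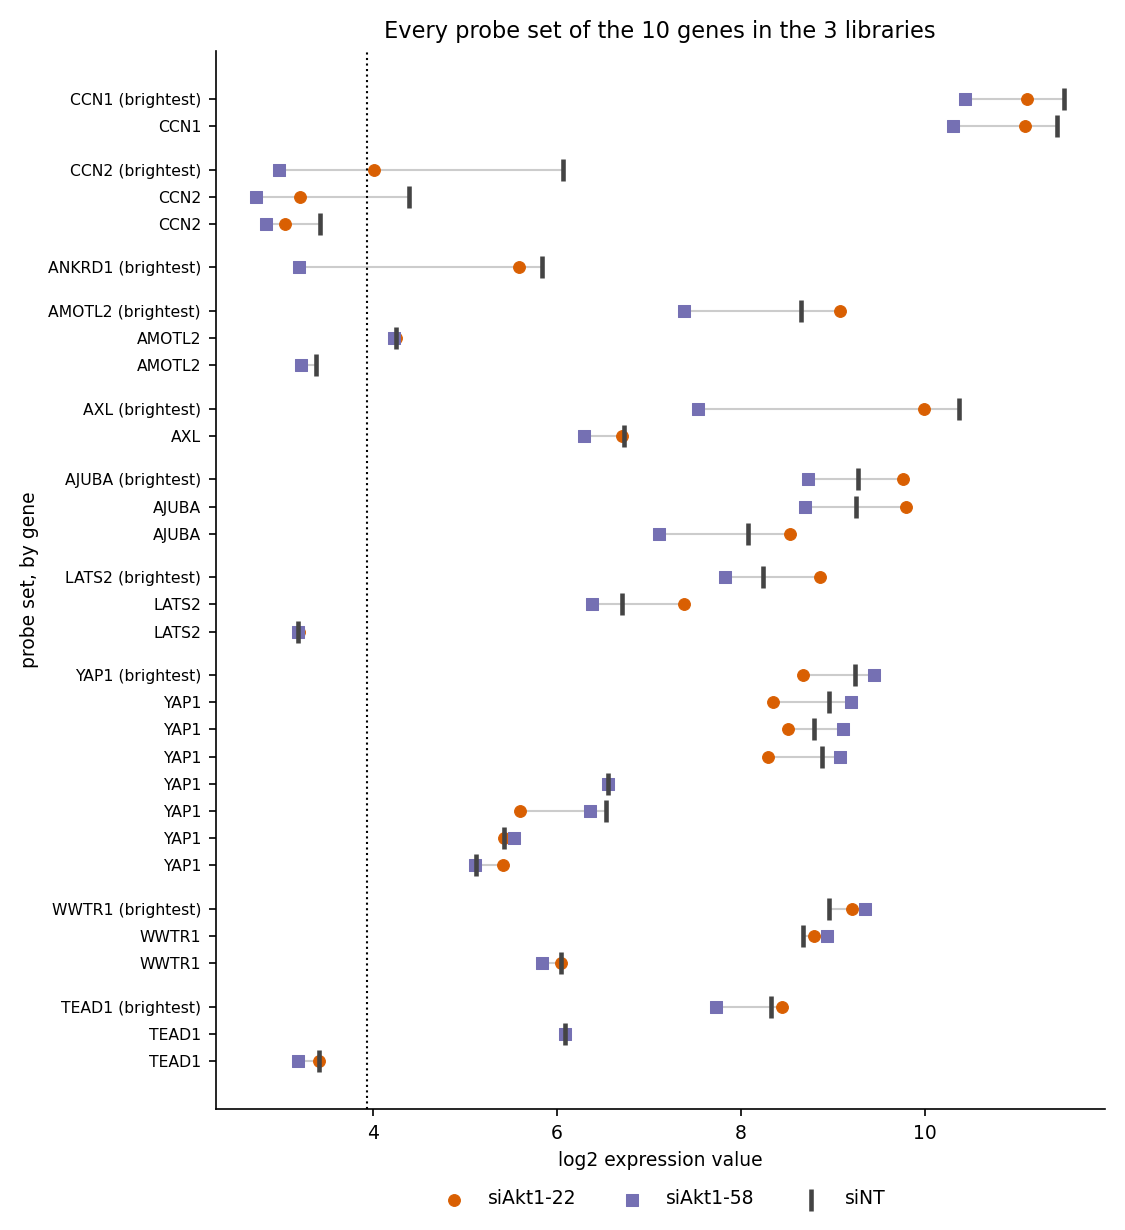
Each row is a probe set of the gene named at the left and the horizontal axis is its log2 expression value with siAkt1-22 (circle), siAkt1-58 (square) and siNT (bar). The dotted line is the filter level of 3.93. Squares lie left of both other marks in the brightest probe sets of CCN1, CCN2, ANKRD1, AMOTL2, AXL, AJUBA, LATS2 and TEAD1, and right of them for YAP1 and WWTR1.

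CCN2, a matricellular growth factor also called CTGF that promotes matrix production, read 4.02 with siAkt1-22 and 2.98 with siAkt1-58, against 6.07 with siNT, in its brightest probe set. The deficit was 4.14-fold with siAkt1-22 and 8.51-fold with siAkt1-58, a mean log2 difference of -2.57 ± 0.74 (SD, n = 2 siRNAs). Both other CCN2 probe sets lay on the same side of siNT. One read 3.21 with siAkt1-22, 2.73 with siAkt1-58 and 4.40 with siNT, and the dimmest one 3.04, 2.84 and 3.43 in the same order. The siAkt1-58 value lies under the filter level, where dim signal keeps a fold from being read exactly, and averaging the 3 probe sets gave a mean difference of -1.49.

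CCN1, the related factor also called CYR61, which signals through integrins, was bright in all libraries. Its log2 value was 11.10 with siAkt1-22 and 10.44 with siAkt1-58, against 11.51 with siNT. A second probe set read 11.08 with siAkt1-22, 10.30 with siAkt1-58 and 11.44 with siNT, so both showed a deficit with siAkt1-22 of 0.41 or less on the log2 scale and one just over 2-fold with siAkt1-58. The mean difference of the brightest set was -0.74 ± 0.47 (SD, n = 2 siRNAs). Of the remaining family members only CCN3 passed the filter, at 4.78 with siAkt1-22, 4.93 with siAkt1-58 and 4.65 with siNT, and CCN4, CCN5 and CCN6 were dim in every library.

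AXL and ANKRD1 stood apart from CCN2 in that nearly all of their difference was in 1 library. AXL, a receptor tyrosine kinase for GAS6 that carcinoma cells use in invasion and drug resistance, read 9.99 with siAkt1-22 and 7.54 with siAkt1-58, against 10.37 with siNT. The deficit was 1.31-fold with siAkt1-22 and 7.14-fold with siAkt1-58. Its other probe set, at 6.71 with siAkt1-22, 6.29 with siAkt1-58 and 6.73 with siNT, showed a smaller difference in siAkt1-58. ANKRD1, an ankyrin repeat protein of the nucleus and the sarcomere, has 1 probe set, which read 5.59 with siAkt1-22, 3.20 with siAkt1-58 and 5.84 with siNT. The deficit was 1.19-fold with siAkt1-22, and with siAkt1-58 it read as 6.26-fold, from a value under the filter level that keeps the fold from being read exactly. Under the scaling to the poly-A controls, the siAkt1-22 difference changed sign for CCN1 (0.16), ANKRD1 (0.31), AXL (0.18) and YAP1 (0.01), and CCN2 stayed at -1.48.

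Among the targets that feed back on the pathway, siAkt1-22 and siAkt1-58 lay on opposite sides of siNT. AMOTL2, an angiomotin-like scaffold that binds YAP1 and holds it at junctions, read 9.08 with siAkt1-22 and 7.39 with siAkt1-58, against 8.65 with siNT. The remaining AMOTL2 probe sets read only 4.26 and 3.38 with siNT and differed from siNT by at most 0.16 in size. AJUBA, a LIM protein that restrains LATS kinases, read 9.76 with siAkt1-22 and 8.73 with siAkt1-58, against 9.28 with siNT. All 3 AJUBA probe sets had this order, with differences from 0.45 to 0.54 with siAkt1-22 and from -0.97 to -0.55 with siAkt1-58. LATS2, the kinase that phosphorylates YAP1 and is itself a target gene, read 8.86 with siAkt1-22 and 7.83 with siAkt1-58, against 8.24 with siNT. A second LATS2 probe set, at 7.39 with siAkt1-22, 6.38 with siAkt1-58 and 6.71 with siNT, had the same order, and the dimmest read between 3.19 and 3.20 in all libraries.

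The coactivators did not share the order of the target genes. YAP1 read 8.68 with siAkt1-22 and 9.44 with siAkt1-58, against 9.24 with siNT. The 4 brightest of its 8 probe sets were below siNT with siAkt1-22, by -0.61 to -0.27, and above it with siAkt1-58, by 0.20 to 0.32. The 4 dimmer ones were mixed: one was equal in all libraries, one stood at -0.94 with siAkt1-22 and -0.18 with siAkt1-58, one at 0 and 0.10, and one at 0.29 and -0.02. WWTR1 read 9.21 with siAkt1-22 and 9.34 with siAkt1-58, against 8.96 with siNT, and was the only member above siNT with both siRNAs, where 30.9% of all genes were. Its second probe set was at 0.12 and 0.26 above siNT, and its dimmest at 0 and -0.20. TEAD1, the DNA-binding partner, read 8.44 with siAkt1-22 and 7.73 with siAkt1-58, against 8.32 with siNT. Its second probe set was equal in all libraries at 6.09, so the siAkt1-58 difference of -0.59 rests on the brightest set and on a dim one at -0.23.

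**Figure D2:**
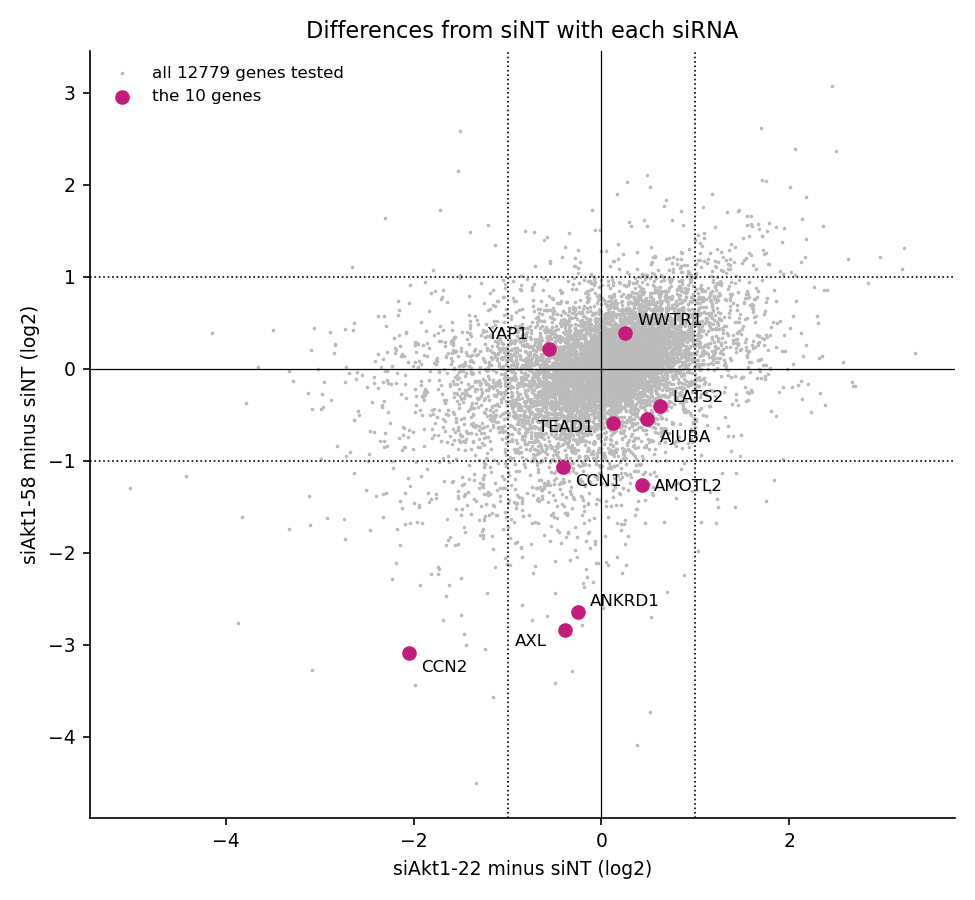
Each point is a gene past the filter, with its log2 difference from siNT with siAkt1-22 on the horizontal axis and with siAkt1-58 on the vertical axis. Dotted lines mark 2-fold. AXL, ANKRD1 and AMOTL2 lie below the lower line near the vertical axis, CCN2 lies low at the left at -2.05 and -3.09, and YAP1 and WWTR1 lie above the horizontal axis.

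The AKT1 siRNAs can also be set against each other without the siNT library. The members were chosen with these same siAkt1 values known, so the counts describe them and test nothing. With siAkt1-22, 6 of the 10 genes read at least 2-fold above siAkt1-58 and none at least 2-fold below it, where 5.00% of all genes were higher and 5.28% lower. The log2 difference of siAkt1-22 from siAkt1-58 was 2.45 for AXL, 2.39 for ANKRD1 and 1.70 for AMOTL2. It was 1.04 for CCN2, 1.03 for AJUBA and 1.03 for LATS2, just past 2-fold, and 0.71 for TEAD1 and 0.66 for CCN1. With siAkt1-58, CCN2 (2.98) and ANKRD1 (3.20) read under the filter level, so their differences cannot be read exactly. YAP1 stood at -0.77 and WWTR1 at -0.14. Under the scaling to the poly-A controls the YAP1 difference was -0.21, that of WWTR1 turned to 0.42 and the others widened, so that CCN1 (1.22) and TEAD1 (1.27) also passed 2-fold, 8 of the 10 in all. With the probe sets of each gene averaged, CCN2 (0.57), AMOTL2 (0.57) and LATS2 (0.68) no longer passed it, and 3 remained (ANKRD1, AXL and AJUBA). With 1 library for each siRNA there is no replicate check of this difference.

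**Figure D3:**
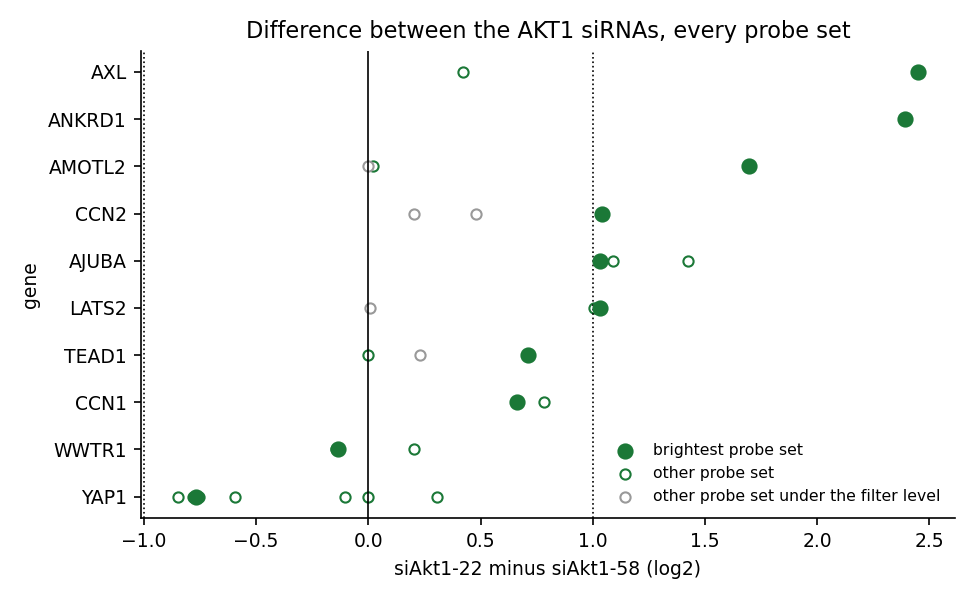
Each point is a probe set of the gene at the left, and the horizontal axis is its log2 value with siAkt1-22 minus that with siAkt1-58. Filled points are the brightest probe sets, open ones the others, grey where the mean is under the filter level. All 3 AJUBA probe sets lie past the 2-fold line, and 6 of the 8 YAP1 probe sets lie left of 0.

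The promoters of these genes were read for the letters that TEAD factors bind best, GGAATG, on both strands. Windows ran from 250 bases before to 50 bases after each start site (RefSeq, GRCh38.p14), and 8 of the 10 genes had an entry. CCN1 and TEAD1 had none, so their promoters were not read. The 8 genes had 12 windows among them, and 7 of the 12 windows (58.3%) held the motif. Of all 35116 windows, 14.0% held it. The 10 genes were listed as YAP/TEAD targets and pathway genes, so the higher share cannot be read as a result of these libraries. The 7 windows belong to CCN2, ANKRD1, AMOTL2, AXL, AJUBA, LATS2 and YAP1, and the match in LATS2 lies after the start site, at position 10. The AP-1-like pattern TGANTCA, with any middle letter, was in 1 of the 12 windows (8.33%), that of ANKRD1, against 7.71% of all windows. The CArG box of SRF was in 0 of 12 against 1.29%. No matches overlapped, and a match of letters is not a bound site. The 250 bases before the start site are shown for the 4 genes with a match that were at least 2-fold below siNT with siAkt1-58, with matches in capitals. CCN2 (chr6:131951373-131951622, minus strand) has 3 matches, beginning at -169, -104 and -95 from the start site. ANKRD1 (chr10:90921088-90921337, minus strand) has GGAATG beginning at -220 and -128. Its other capitals are TGATTCA, which fits the AP-1-like pattern through the open middle letter. AMOTL2 (chr3:134374448-134374697, minus strand) and AXL (chr19:41226505-41226754, plus strand) have 1 match each, on the reverse strand, in the second of their windows.
CCN2: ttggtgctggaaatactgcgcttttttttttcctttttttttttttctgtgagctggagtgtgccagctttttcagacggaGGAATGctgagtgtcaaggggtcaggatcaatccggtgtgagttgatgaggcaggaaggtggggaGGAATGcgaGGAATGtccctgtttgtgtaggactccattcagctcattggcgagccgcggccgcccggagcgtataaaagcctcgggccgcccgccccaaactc
ANKRD1: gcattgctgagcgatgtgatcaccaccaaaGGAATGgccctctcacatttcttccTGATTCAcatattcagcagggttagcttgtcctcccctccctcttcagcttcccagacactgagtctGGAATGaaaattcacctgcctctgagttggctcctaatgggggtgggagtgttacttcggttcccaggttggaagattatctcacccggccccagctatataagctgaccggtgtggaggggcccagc
AMOTL2: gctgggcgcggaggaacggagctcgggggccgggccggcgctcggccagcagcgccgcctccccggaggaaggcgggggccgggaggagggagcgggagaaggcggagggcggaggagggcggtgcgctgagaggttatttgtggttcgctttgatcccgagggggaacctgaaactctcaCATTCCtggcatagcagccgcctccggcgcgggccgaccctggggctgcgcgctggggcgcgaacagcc
AXL: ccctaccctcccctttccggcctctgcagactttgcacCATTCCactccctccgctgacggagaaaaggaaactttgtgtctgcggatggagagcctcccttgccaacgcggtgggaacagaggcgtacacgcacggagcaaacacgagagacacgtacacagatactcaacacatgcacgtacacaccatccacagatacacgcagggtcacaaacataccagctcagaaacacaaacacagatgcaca

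Other genes of a published YAP/TEAD target signature were read from a list that leaves out the members. Of 15 past the filter, 2 were at least 2-fold lower with both siRNAs and 0 higher, where 1.17% and 0.736% of all genes were. These were IGFBP3, which binds insulin-like growth factors in serum and matrix, at -2.23 with siAkt1-22 and -2.29 with siAkt1-58 (-1.18 and -1.09 in a dimmer probe set), and the forkhead factor FOXF2, at -1.48 and -1.26. IGFBP3 read 3.99 with siAkt1-22 and 3.93 with siAkt1-58, about the filter level, so the size of its difference is limited by dim signal. The list's medians were -0.26 with siAkt1-22 and -0.09 with siAkt1-58, against the members' -0.07 and -0.83. CCDC80, an extracellular matrix protein, had the order of AXL: it was at -0.01 with siAkt1-22 and -1.07 with siAkt1-58, and its 5 other probe sets were at -0.53 to 0.07 and -1.25 to -0.60. TGFB2, a TGF-beta ligand, was at 0.80 and -1.41 in its brighter probe set and within 0.08 of siNT in a dim one. Others had the reverse order. ASAP1, an ARF GTPase-activating protein of focal adhesions, was at -2.32 with siAkt1-22 and -0.35 with siAkt1-58, with -2.45 to -2.19 and -0.40 to -0.21 in its 3 other probe sets, and the exchange factor DOCK5 at -1.56 and -0.09, with 2 fainter DOCK5 probe sets at -0.09 and 0.07, and at 0.10 and 0.25. Highest by its mean was GADD45A, a stress-induced growth arrest gene, at 0.56 and -0.01. Limma, fitted to the siAkt1 group against siNT, passed 0 of the 15 after Benjamini-Hochberg adjustment over all genes. It passed 0 of all 12779 genes, so a count of 0 here or in the lists below says nothing particular about a list.

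Of the kinases and scaffolds upstream of YAP1, 18 passed the filter and 3 were at least 2-fold lower than siNT with siAkt1-22, where 5.97% of all genes were. With siAkt1-58 there were 0 at least 2-fold lower or higher, where 3.58% and 1.54% of all genes were, a count near the background for 18 genes. The list had medians of -0.22 with siAkt1-22 and 0.16 with siAkt1-58. The 3 were NF2, the membrane scaffold merlin, at -1.34 with siAkt1-22 and 0.57 with siAkt1-58, the kinase TAOK3 at -1.74 and 0.38, and the LIM protein LIMD1 at -1.40 and 0.14. Among the fainter NF2 probe sets, one was at -2.23 and -0.14, another at -2.38 and -0.36, and the other four at -0.61 to 0 with siAkt1-22. Both TAOK3 probe sets were alike, and a dim LIMD1 probe set was at -0.09 with each siRNA. The count also depends on the probe set for WWC2, which was at -0.29 with siAkt1-22 and 0 with siAkt1-58 in its brightest one. Its other probe sets were at -1.60 and -0.28, at -1.11 and -0.44, and at -0.14 and -0.21. The core kinases STK3 and STK4, with their adaptor SAV1, lay within 1 log2 unit of siNT in both libraries. Highest by its mean was TAOK2, at 0.57 and 0.22. Limma passed 0 of the 18, as of all genes.

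TEAD4, another DNA-binding partner, read 6.55 with siAkt1-22 and 6.37 with siAkt1-58, against 7.53 with siNT, in 1 probe set, a difference of -0.98 and -1.15. TEAD3 was at 1.08 with siAkt1-22 and 0.10 with siAkt1-58, and TEAD2 at -0.03 and -0.08. VGLL3, a TEAD cofactor, was at -0.25 and -0.23 in its brightest probe set, at -0.99 and -0.60 in the next and at 0.27 and 0.16 in the faintest, and VGLL4, which competes with YAP1 for TEADs, at 0.22 and 0.40. Limma passed 0 of these 7 TEAD and VGLL genes, as of all genes.

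**Figure D4:**
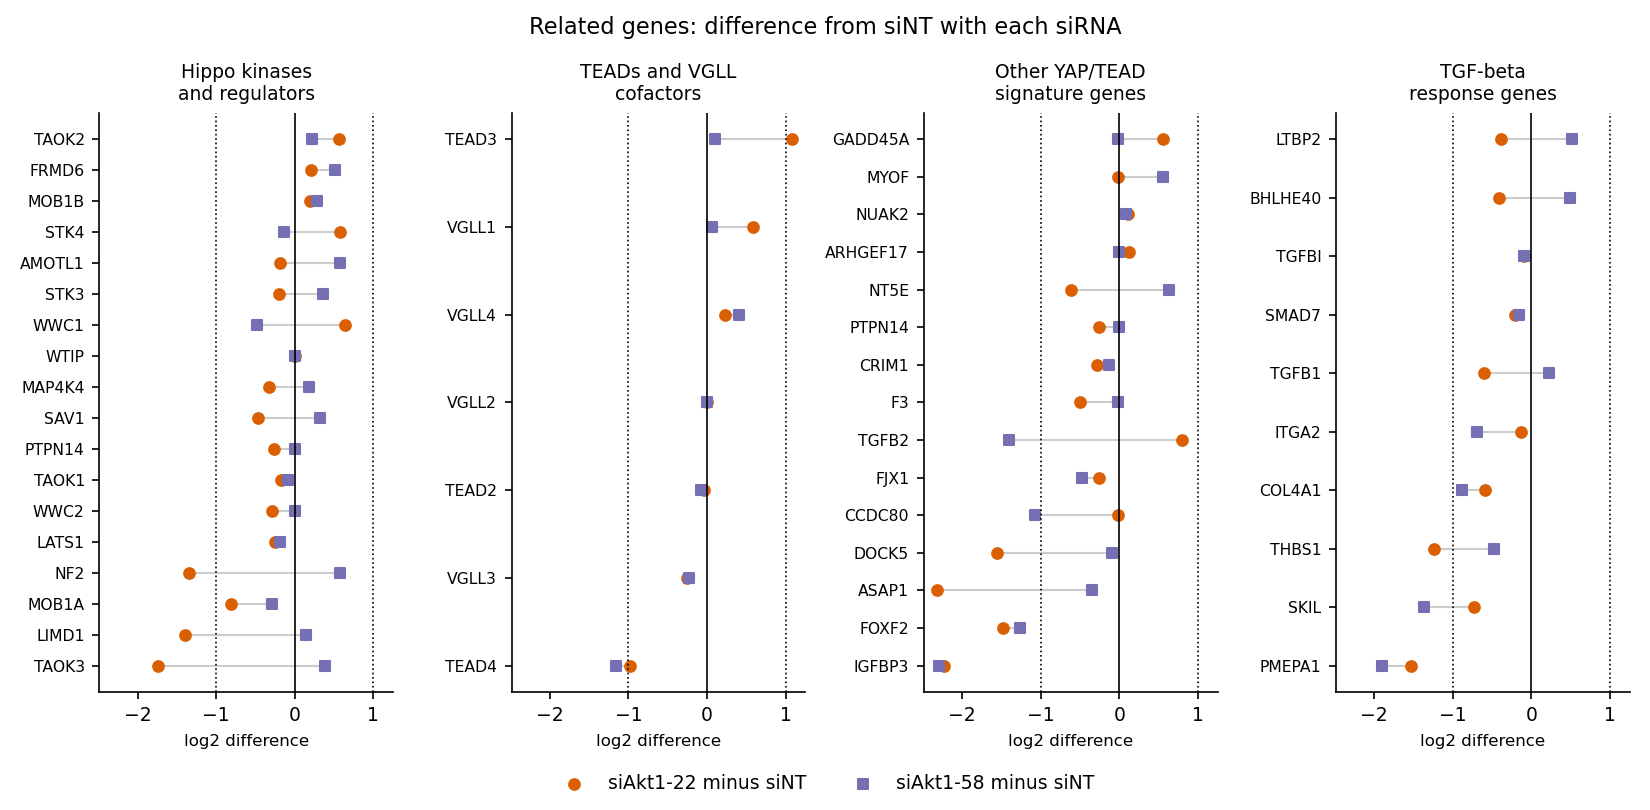
Log2 differences from siNT with siAkt1-22 (circles) and siAkt1-58 (squares) of the genes past the filter in 4 related lists, with dotted lines at 2-fold. IGFBP3, FOXF2 and PMEPA1 lie left of the dotted line with both siRNAs, whereas NF2, LIMD1 and TAOK3 do so with siAkt1-22 and lie right of 0 with siAkt1-58.

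CCN2 is also a target of TGF-beta signalling, and response genes of that pathway were read beside it. Of 10 past the filter, 1 was at least 2-fold lower with both siRNAs and 0 higher, where 1.17% and 0.736% of all genes were, with medians of -0.50 with siAkt1-22 and -0.32 with siAkt1-58. That gene was PMEPA1, a feedback inhibitor of SMAD signalling, which read 6.99 with siAkt1-22 and 6.61 with siAkt1-58, against 8.52 with siNT, and its 2 other probe sets were at least 2-fold lower with both siRNAs as well. SKIL, a SMAD corepressor, was at -0.73 and -1.37, with smaller differences of the same sign in its 2 fainter probe sets. THBS1, a matrix protein that activates latent TGF-beta and is also a YAP target, was at -1.24 and -0.48, and at -2.37 to -0.87 and -0.91 to -0.60 in its 4 other probe sets. LTBP2, a member of the latent TGF-beta binding protein family, was highest by its mean, at -0.39 and 0.52. Its other probe set was at 0.16 and 0.70, above siNT with both siRNAs. Limma passed 0 of the 10, as of all genes.

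Targets of SRF and its actin-regulated partner MRTF, which share CCN1 and CCN2 with YAP, had medians of 0.49 with siAkt1-22 and -0.03 with siAkt1-58 over 13 genes. The cytoplasmic actins ACTB (-3.09 with siAkt1-22 and 0.21 with siAkt1-58) and ACTG1 (-2.61 and -0.11) were at least 2-fold lower with siAkt1-22. The calponin CNN2 (1.06 and 0.24) was the 1 gene at least 2-fold higher, a count near the background. With siAkt1-22, 5.97% of all genes were at least 2-fold lower and 4.40% at least 2-fold higher. With siAkt1-58, 0 of the 13 were at least 2-fold lower or higher, where 3.58% and 1.54% of all genes were, a count near the background. Limma passed 0 of them, as of all genes.

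The genes whose pair of differences was nearest to that of CCN2, by Euclidean distance over the siAkt1-22 and siAkt1-58 differences, were ZNF367 (distance 0.35), NFIB (0.51), DSCC1 (0.61), SMIM13 (0.62) and SPTY2D1 (0.69). ZNF367 was at -1.98 with siAkt1-22 and -3.44 with siAkt1-58, and NFIB, a nuclear factor I transcription factor, at -1.68 and -2.73. DSCC1, a subunit of the alternative clamp loader at replication forks, read 7.33 with siAkt1-22 and 5.77 with siAkt1-58, against 8.77 with siNT. Nearest to CCN1 were FST (0.02), DCLRE1A (0.06), DBR1 (0.06), ATP1B1 (0.06) and H2AZ2 (0.07). FST, the activin-binding protein follistatin, read 7.78 with siAkt1-22, 7.14 with siAkt1-58 and 8.21 with siNT. Nearness rests on 3 libraries and describes these arrays only.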

How the data were processed

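The values analysed are log2 expression values per probe set, deposited by the authors for 3 arrays, and were made by RMA, per the submitters' processing notes, which give no version. RMA corrects background, equalises the arrays and summarises probes by median polish, which with 3 arrays leaves 20.7% of probe sets equal in all of them. Per the labels' protocols, 10 ng of total RNA was labelled with a 3' in vitro transcription kit.

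Symbols were updated through Entrez identifiers, and the brightest of the 45253 probe sets with 1 gene stood for each gene. Dim genes, with a mean under the 30th percentile (log2 3.93), were left out, which kept 12779. The siAkt1 libraries formed 1 group, by their shared genotype label. Genes were counted at a log2 difference of at least 1, and limma 3.58.1 (R 4.3.3) tested that group against siNT with lmFit and eBayes, two-sided, at a Benjamini-Hochberg threshold of 0.05 and with 1 residual degree of freedom. The single siNT library is assumed to vary like the siAkt1 libraries, whose spread also holds effects specific to each siRNA and may be technical. The number of arrays limits the precision. The steps were run on simulated data with large set differences and small noise, which checks the code and not the power in these libraries.

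The members and the lists were chosen with earlier results of these data known. Genes were named by a rule: all members, AKT1, the markers, members of a list past 2-fold or at its ends, and the 5 nearest to CCN2 and to CCN1. Related genes named outside it, such as STK3, SAV1 and VGLL4, were chosen after their values were seen. Tables were handled in Python 3.11.15 with pandas 2.3.3.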

Additional observations from a re-analysis of the deposited data

How the results depend on the processing

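By the rule of 2-fold with both siRNAs, 94 genes were higher and 150 lower than siNT. These counts became 43 and 99 with averaged probe sets, 178 and 345 with probe sets as the unit, 409 and 458 at a limit of 1.5-fold, and 152 and 62 with arrays shifted by the poly-A controls. That shift raised the share of higher calls to 71.0%, against 38.5% as deposited. With 1 siAkt1 library left out they ranged from 197 to 562 higher and from 457 to 763 lower, values without residual degrees of freedom. Limma passed 0 genes as reported (lowest adjusted p = 0.607, with 954 genes at an unadjusted p under 0.05) and 0 under each of the 8 alternatives fitted; leaving out a siAkt1 library leaves limma nothing to estimate a spread from. For the 10 genes, 40 mean differences were recomputed by averaging, median centring, quantile normalization or the poly-A shift. Of these, 37 stayed within 1 SD. The exceptions were CCN2 on averaging (-1.49), and WWTR1 on averaging (0.13) and under the poly-A shift (0.60). That SD is the spread between the siRNAs, 1.73 for AXL but 0.10 for WWTR1. It is a wide limit where the siRNAs differ, so the count does not measure stability. Median centring and quantile normalization also change little in arrays already equalised by RMA. The poly-A shift gave the other sign for AJUBA (0.25), YAP1 (0.11) and TEAD1 (0.05). Averaging brought AXL to -0.92 from its 2 probe sets, against -1.61 in the brightest, and AMOTL2 to -0.20, against -0.42. No paired analysis was possible because there is only 1 siNT library. Dim signal limits what can be read of CCN2 and ANKRD1 with siAkt1-58, and the cause of the changed counts was not tested.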
